A study of Homo sapiens with 12 samples.

Results

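The spliceosome removes introns with small nuclear ribonucleoproteins (snRNPs), and 64 genes for snRNP proteins and for the SMN complex, which builds snRNPs, were examined in PPM1G knockout and control HCT116 cells. They were chosen by name as the protein-coding rows of the deposited tables whose symbol starts with SNRP, SNRNP, GEMIN, PRPF, SF3A or SF3B, has LSM followed by a digit, or is SMN1, SMN2, DDX20 or STRAP. The rule gave 64 of the 56104 gene rows, of which 20020 are protein-coding, and used no measured value. HCT116 is a colorectal carcinoma cell line, kept under 15 passages per the labels, and PPM1G is a protein phosphatase found mainly in the nucleus. The 4 groups, of 3 libraries each, were nascent RNA of PPM1G knockout cells (KO), nascent RNA of control cells (Ctrl), steady-state RNA of KO cells and steady-state RNA of Ctrl cells, all with ERCC spike-in RNA added. In 4sU-seq, the assay of nascent RNA, cells took up 500 µM 4-thiouridine for 10 min and the labelled RNA was biotinylated and pulled down from 300 µg. RNA-seq measured steady-state RNA. The labels used here do not say whether the KO line is 1 clone, which site was edited or how the RNA-seq cultures were grown. The tests therefore weigh the difference between KO and Ctrl against the spread between these libraries, and do not speak for other clones or cultures.

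Each major snRNP holds a small nuclear RNA wrapped by a ring of Sm proteins (SNRPB, SNRPD1, SNRPD2, SNRPD3, SNRPE, SNRPF and SNRPG), except U6, which carries a ring of LSm proteins. The SMN complex, made of SMN, the Gemin proteins and STRAP, loads the Sm ring onto the small nuclear RNA in the cytoplasm, after which the particle returns to the nucleus and gains its own proteins: SNRNP70, SNRPA and SNRPC for U1, the SF3A and SF3B subunits for U2, and the PRPF and SNRNP proteins of the U4/U6.U5 tri-snRNP. PPM1G, also called PP2C gamma, has been described as a phosphatase of SMN and as a factor of spliceosome assembly.

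The deposited gene counts summed to 79403238 to 96766516 in the KO and 83785534 to 101884166 in the Ctrl libraries of 4sU-seq, and to 30962756 to 36178838 in the KO and 34042299 to 42479828 in the Ctrl libraries of RNA-seq. Levels below are CPM (gene counts scaled to a common library size) after TMM scaling, given for replicates 1, 2 and 3 in that order, and changes are log2 of KO over Ctrl ± standard error with n = 3 libraries per group. A gene is called when its adjusted p, from edgeR's quasi-likelihood test with Benjamini-Hochberg adjustment over all genes tested in the assay, is below 0.05. PPM1G itself had 98.9, 144 and 104 CPM in the KO libraries, against 242, 271 and 235 CPM in the Ctrl libraries of 4sU-seq (-1.11 ± 0.17, adjusted p = 0.00717). In RNA-seq it had 97.9, 95.0 and 98.0 CPM in KO and 326, 293 and 331 CPM in Ctrl (-1.71 ± 0.06, adjusted p = 1.77e-10). The groups did not overlap in either assay, so the targeted gene did not go against the labels, and its RNA was lowered, not absent. Scaled by the ERCC spike-ins, the 4sU-seq change was -0.93 (adjusted p = 0.196). These are bulk libraries, in which fewer cells expressing a gene and less RNA per cell cannot be told apart. The epithelial markers EPCAM, CDH1, KRT8, KRT18 and KRT19 stood between 82.8 and 1302 CPM in the KO and between 63.4 and 1482 CPM in the Ctrl libraries of RNA-seq. VIL1, also an epithelial marker, the leukocyte gene PTPRC, the endothelial gene PECAM1 and the fibroblast gene COL1A2 did not pass 0.282 CPM in any of them. The fibroblast gene COL1A1 averaged 10.1 CPM in KO and 5.12 CPM in Ctrl there (0.98 ± 0.12, adjusted p = 1.6e-05). The neural gene PAX6 averaged 4.75 CPM in KO and 3.09 CPM in Ctrl (0.62 ± 0.15, adjusted p = 0.00363). In 4sU-seq PECAM1 averaged 9.12 CPM in KO and 4.26 CPM in Ctrl (1.10 ± 0.12, adjusted p = 0.00287). VIL1 averaged 3.95 and 3.67 CPM there (adjusted p = 0.653), and PTPRC and COL1A2 did not pass 0.131 CPM in any 4sU-seq library.

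KO replicate 2 of 4sU-seq stood apart from the other KO libraries, and the snRNP genes showed how. Relative to the mean log2 CPM of KO replicates 1 and 3, it was 0.98 higher at SF3B5, 0.95 at GEMIN4 and 0.82 at SF3A2, whose longest transcripts hold 56.6%, 55.3% and 66.6% G+C. It differed by -0.85 at SNRNP48 and -0.79 at PRPF18, which hold 38.1% and 40.3%. Across the 56 members tested in 4sU-seq with a transcript in GENCODE 29, this deviation followed G+C content with Spearman rho 0.75 (Pearson r 0.74), and across 14141 protein-coding genes with rho 0.72. Ctrl replicate 2 deviated from the other Ctrl libraries in the same order, with rho 0.73 over the members, but by less, between -0.39 at SNRNP48 and 0.39 at PRPF8. These are descriptions across genes that share a library, not replicates. The part of G+C content in the results was not tested. Total counts of called members and many single 4sU-seq changes are given with and without KO replicate 2, and the rest with all libraries only.

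**Figure D1:**
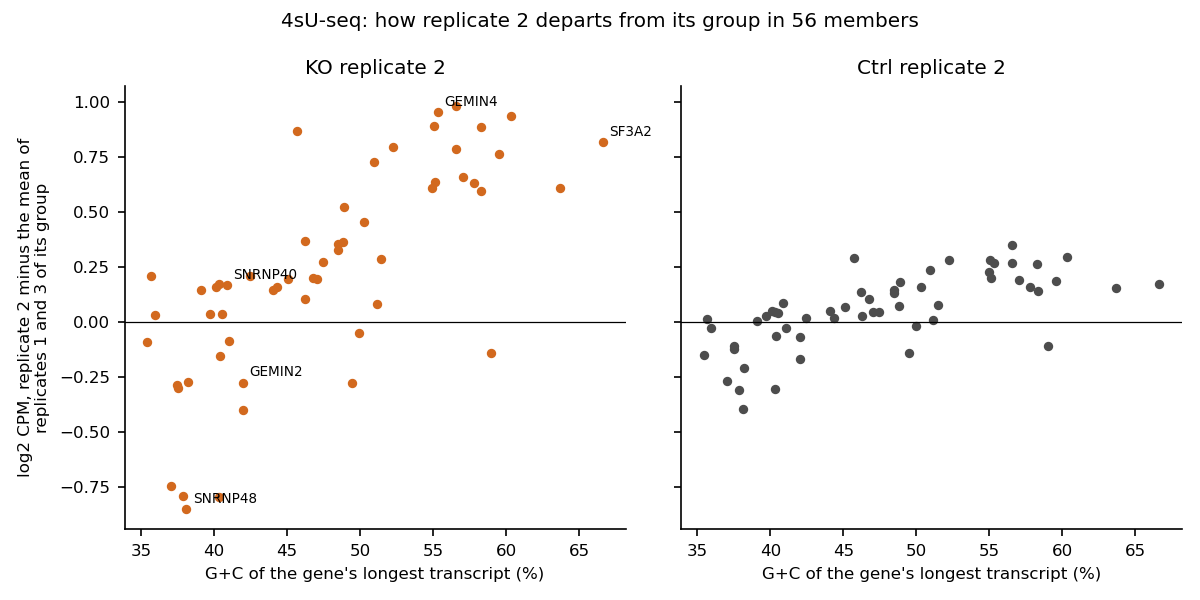
Each point is 1 of 56 snRNP and SMN complex genes. The vertical axis is log2 CPM (with 0.5 CPM added) of replicate 2 minus the mean of replicates 1 and 3 of its group in 4sU-seq, for KO on the left and Ctrl on the right, and the horizontal axis is the G+C content of the gene's longest transcript. The KO points climb from -0.85 at SNRNP48 to 0.98 at SF3B5, and the Ctrl points from -0.39 at SNRNP48 to 0.35 at SF3B5.

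Not every member could be measured in both assays. In 4sU-seq 62 of the 64 were tested, since LSM7 and GEMIN7 are listed at 0 counts in all its libraries although they had 2148 to 2698 and 467 to 682 counts in RNA-seq. In RNA-seq 62 were tested, since SNRPN is listed at 0 throughout and PRPF31 had 3 to 9 counts. GEMIN7 overlaps MARK4 over most of its span and PPP1R37 only at its edge. LSM7 lies within LLfos-48D6.2 on the opposite strand and meets SPPL2B only at its edge, and SNRPN overlaps SNURF. The rows of PRPF31, PRPF8, LSM2, LSM14A, SMN1 and SMN2 carry identifiers without coordinates in GENCODE 29 and may hold only some of the reads of these genes, so their values are uncertain. How the authors' counting treated such genes, and whether both tables were counted alike, is not given in the sources used here. Of the 58 members with coordinates, 30 overlap another annotated gene, such as LSM3 and XPC on opposite strands, and may share reads with it. Per kilobase of exon, RNA-seq levels of the KO and Ctrl cells ran from 0.827 and 0.775 CPM per kb for PRPF40B, a U1-associated protein of low level, to 163 and 199 for SNRPB, the SmB protein. STRAP led the SMN complex with 108 in KO and 99.8 CPM per kb in Ctrl cells, PRPF19 the remaining PRPF genes with 78.1 and 112, and SNRPC the U1 proteins with 92.8 and 105. GEMIN8, with 3.58 and 2.92 CPM per kb, was the lowest of the SMN complex genes that have a length.

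Most snRNP genes had less steady-state RNA in KO cells, by modest amounts. In RNA-seq 36 of the 62 tested members fell and 6 rose, and the changes ran from -0.62 for GEMIN4 to 0.35 for LSM5, with a median of -0.22 against 0.00 over all 20415 genes tested. Of all those genes 26.8% fell and 21.5% rose. The members are strongly expressed, however, and among the 6583 protein-coding genes with a mean of at least 32 CPM, a bound set after the data were seen, 54.0% fell and 11.7% rose, with a median of -0.18. Of the 53 members above that bound, 33 fell and 5 rose (62.3% and 9.43%, median -0.23). The share of snRNP genes that fell thus lay near that of coding genes of like level. The number that rose depended on single libraries: it was 4, 3 and 2 without KO replicates 1, 2 and 3, and 11 without Ctrl replicate 3.

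The direction of the smaller changes depended on the scaling. With library size alone, which moves the median of all genes to 0.19, 19 members were called lower and 18 higher, where 13.8% of all genes were lower and 36.4% higher. With ERCC scaling, at a median of 0.08, the split was 20 to 9, against 13.4% and 21.4% of all genes. The lower call was lost under both by 16 members: GEMIN6, GEMIN7, SMN2, SNRPB, SNRPD1, SNRPD3, SNRPC, SF3B1, SNRPA1, PRPF3, SNRNP25, LSM12, LSM14A, LSM14B, PRPF38A and PRPF38B. Of these, SNRPC and PRPF38B stood at 0.003 and 0.03 under library size alone. Relative to the median of all genes, the members' median was -0.22, -0.22 and -0.22 under TMM, library size and ERCC scaling. A change of scaling moves all genes by nearly the same amount, so these values had to be alike. They cannot show whether the members' fall holds under each scaling. Under TMM, members of at least 32 CPM had a median of -0.23, and coding genes of that level -0.18.

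In nascent RNA 6 of 62 tested members fell (SNRNP40, GEMIN5, GEMIN2, SNRPD1, GEMIN6 and LSM12), and none rose. Over all 21236 genes tested 6.98% fell and 12.6% rose, and among the 6850 protein-coding genes of at least 32 CPM 11.0% fell and 3.82% rose, so that the members' 9.68% also lay near its background. At an unadjusted p below 0.05, 18 members stood lower and 1 higher, where 13.8% of all genes were lower and 20.1% higher, and 21.8% and 7.28% of the coding genes of at least 32 CPM. DESeq2 called 15 lower and 0 higher, against 11.4% and 14.6% of all genes. The median change was -0.24, against 0.05 over all genes. Among genes of at least 32 CPM it was -0.27 for the members and -0.11 for all coding genes. Without KO replicate 2, 39 members fell, the same 6 among them, and GEMIN8 rose. Of these 39, 28 also fell in RNA-seq, where 58.1% of all tested members fell. The share of all genes that fell in both was not counted, so nothing is read from the 28. Of all genes 28.4% fell and 25.4% rose without KO replicate 2, and of the coding genes of at least 32 CPM 46.1% fell. Leaving out any one of the other libraries instead left 1 call, SNRNP40, or 2 calls, SNRNP40 and GEMIN2, without KO replicate 3. Under library size alone 3 members were lower and 0 higher, at a median of all genes of 0.14, where 4.04% of all genes were lower and 14.6% higher. Under ERCC scaling, at a median of 0.27, none was called in either direction, against 0.207% of all genes lower and 3.16% higher. PPM1G was not called in 4sU-seq under that scaling either (adjusted p = 0.196). The ERCC scaling factors of 4sU-seq spread widely, at 0.88, 1.53 and 0.63 in KO and 0.95, 1.25 and 0.84 in Ctrl. The TMM factors ran from 0.945 to 1.05. The part of this spread in the calls lost under ERCC scaling in 4sU-seq was not tested.

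**Figure D2:**
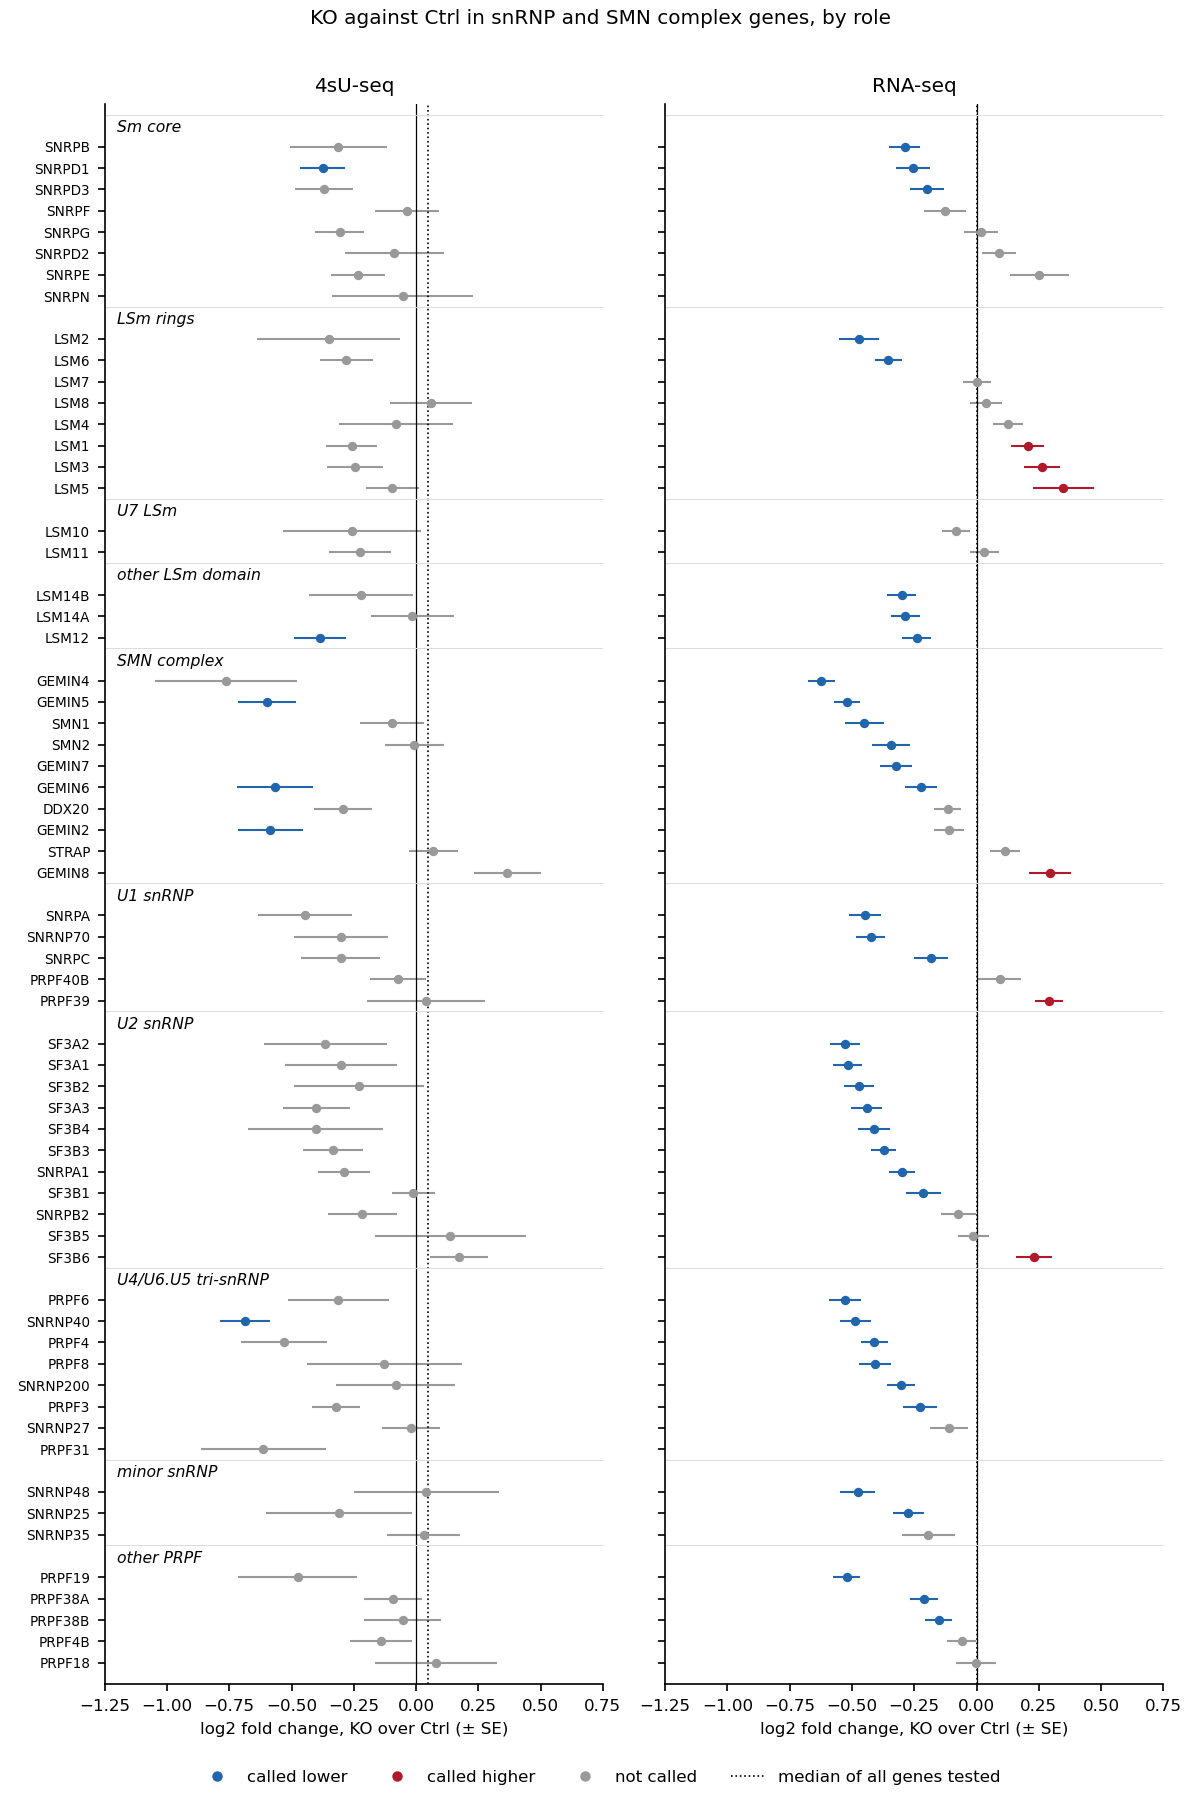
Log2 fold change of KO over Ctrl ± standard error for snRNP and SMN complex genes, in role groups, for 4sU-seq on the left and RNA-seq on the right, with n = 3 libraries per group. Blue points were called lower, red points higher and grey points not called, a gene without a point was not tested, and the dotted line is the median of all genes tested. RNA-seq points sit mostly left of 0 with short errors, and the LSm rings hold 3 of the 6 genes that rose, where 21.5% of all genes rose.

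**Figure D3:**
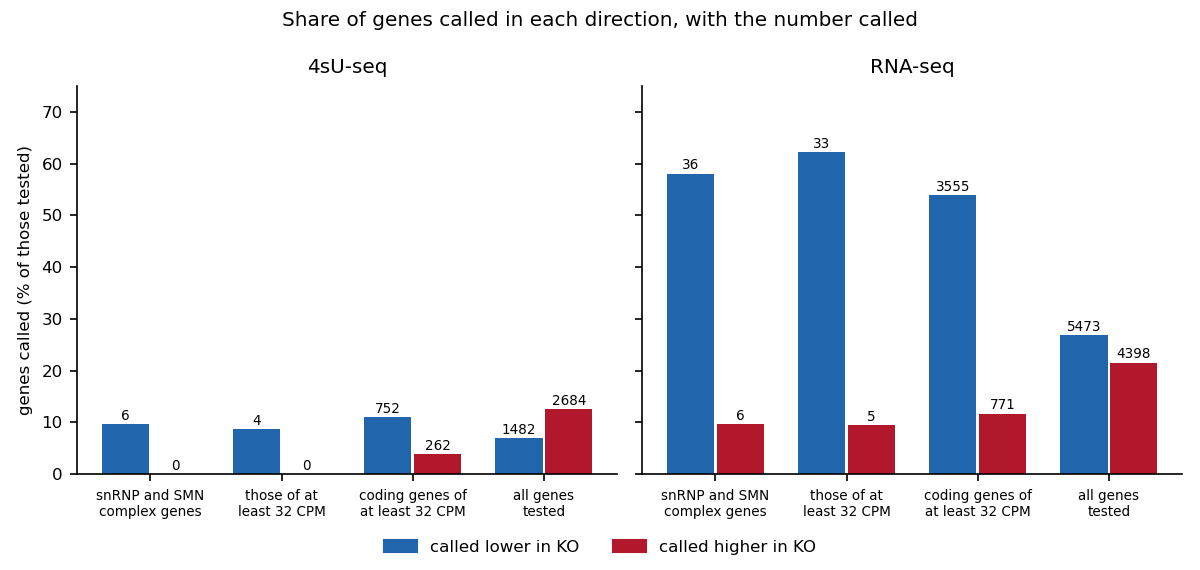
Share of tested genes called lower (blue) and higher (red) in KO, with the number called above each bar, for the 64 snRNP and SMN complex genes, those of them with a mean of at least 32 CPM, all protein-coding genes of at least 32 CPM, and all genes. In RNA-seq the 58.1% of members called lower stand closer to the 54.0% of strongly expressed coding genes than to the 26.8% of all genes.

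GEMIN4 of the SMN complex had the lowest fold change of the set in both assays. In RNA-seq 6 of its 10 genes fell and 1 rose, and in 4sU-seq 3 of 9 fell. In RNA-seq 54.0% of coding genes of at least 32 CPM and 26.8% of all genes fell, and in 4sU-seq 11.0% of coding genes of at least 32 CPM and 6.98% of all genes, and nothing particular to so few genes is read from the counts. GEMIN4, a scaffold subunit encoded at chr17:744414-753999 (hg38, minus strand), had 107, 110.5 and 106 CPM in the KO libraries, against 172, 160.4 and 165 CPM in the Ctrl libraries of RNA-seq (-0.62 ± 0.05, adjusted p = 1.03e-06). All KO libraries lay far below all Ctrl libraries, and the change was past the threshold under every scaling and with each library left out. In 4sU-seq it had 53.7, 102 and 50.6 CPM in KO and 112, 131 and 106 CPM in Ctrl (-0.76 ± 0.28, adjusted p = 0.112). The groups did not overlap, but KO replicate 2 held nearly the level of the Ctrl libraries, and without it the change was -1.23 ± 0.12, adjusted p = 0.000369.

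GEMIN5, the subunit that recognises the small nuclear RNA, at chr5:154887416-154938209 on the minus strand, fell in both assays. It had 135, 137 and 137 CPM in KO and 199.9, 189.6 and 196 CPM in Ctrl in RNA-seq (-0.52 ± 0.05, adjusted p = 3.44e-06). Nascent GEMIN5 RNA stood at 97.5, 122 and 104 CPM in KO and 159, 167 and 164 CPM in Ctrl (-0.60 ± 0.12, adjusted p = 0.0161; -0.77 ± 0.09 without KO replicate 2). KO lay below Ctrl in every library of both assays. GEMIN2, which binds SMN and holds the Sm proteins, at chr14:39114223-39136973 on the plus strand, fell only by the test of nascent RNA, at 22.2, 18.6 and 22.8 CPM in KO and 30.9, 30.8 and 33.8 CPM in Ctrl (-0.59 ± 0.13, adjusted p = 0.0245; -0.57 ± 0.09 without KO replicate 2). Its steady-state RNA was 24.0, 23.3 and 23.1 CPM in KO and 24.1, 24.7 and 27.3 CPM in Ctrl (-0.11 ± 0.06, adjusted p = 0.159), which the test did not call, although no KO library reached the lowest Ctrl library.

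GEMIN6, which pairs with GEMIN7 in the complex, had 11.4, 15.0 and 11.6 CPM in KO and 19.1, 20.0 and 17.4 CPM in Ctrl in 4sU-seq (-0.57 ± 0.15, adjusted p = 0.045; -0.78 ± 0.10 without KO replicate 2). In RNA-seq it had 38.7, 37.3 and 38.6 CPM in KO and 45.9, 40.5 and 47.4 CPM in Ctrl (-0.22 ± 0.06, adjusted p = 0.00997), and it was not called there under ERCC scaling (adjusted p = 0.324). KO was the lower group throughout. SMN1 and SMN2 encode the SMN protein and are near-identical copies whose reads the counting could split, so their values are uncertain. SMN1 had 45.3, 51.7 and 43.7 CPM in KO and 57.8, 69.7 and 65.0 CPM in Ctrl in RNA-seq (-0.45 ± 0.08, adjusted p = 0.000335) and SMN2 had 38.2, 41.1 and 48.2 CPM in KO and 50.9, 55.7 and 55.0 CPM in Ctrl (-0.34 ± 0.08, adjusted p = 0.0024). Nascent RNA changed by -0.10 ± 0.13 and -0.01 ± 0.12, with adjusted p = 0.641 and 0.977. Without KO replicate 2 these changes were -0.11 ± 0.11 and -0.02 ± 0.10, with adjusted p = 0.43 and 0.853.

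The remaining SMN complex genes went both ways. GEMIN7 fell in RNA-seq (-0.32 ± 0.06, adjusted p = 0.000959). DDX20, the Gemin3 helicase, changed by -0.12 ± 0.06, adjusted p = 0.102 in RNA-seq and by -0.29 ± 0.12, adjusted p = 0.129 in 4sU-seq. Without KO replicate 2 it was called lower in 4sU-seq (-0.44 ± 0.09, adjusted p = 0.00521). STRAP, the most abundant SMN complex gene per kilobase, had 236, 235 and 244 CPM in KO and 205, 221 and 236 CPM in Ctrl in RNA-seq (0.11 ± 0.06, adjusted p = 0.141) and 124, 139 and 127 CPM in KO and 119.8, 127 and 125 CPM in Ctrl in 4sU-seq (0.07 ± 0.10, adjusted p = 0.661; -0.05 ± 0.08 without KO replicate 2), with overlapping groups in both. GEMIN8, which joins the GEMIN6 and GEMIN7 pair to SMN, rose instead. It had 8.16, 8.71 and 9.14 CPM in KO and 6.73, 7.02 and 7.46 CPM in Ctrl in RNA-seq (0.30 ± 0.08, adjusted p = 0.0107), a low level, and its 4sU-seq change was 0.37 ± 0.13, adjusted p = 0.108 (0.39 ± 0.10, adjusted p = 0.0142 without KO replicate 2). GEMIN8 is uncertain, since its pseudogene GEMIN8P4 carried 10.1% as many RNA-seq counts.

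Sequence upstream of the members was read from RefSeq (GRCh38.p14), which matched 52 of the 64 symbols. To set SMN complex genes that moved side by side, the 250 bases before the annotated start are shown for the gene with the largest fall in RNA-seq (GEMIN4), a gene that rose (GEMIN8) and a gene that fell in both assays (GEMIN5), written 5′ to 3′ in the gene's direction. Capitals mark CCGGAAG, the core of ETS family sites, or its reverse complement. CCGGAAG was the only motif of those searched that they held.
GEMIN4: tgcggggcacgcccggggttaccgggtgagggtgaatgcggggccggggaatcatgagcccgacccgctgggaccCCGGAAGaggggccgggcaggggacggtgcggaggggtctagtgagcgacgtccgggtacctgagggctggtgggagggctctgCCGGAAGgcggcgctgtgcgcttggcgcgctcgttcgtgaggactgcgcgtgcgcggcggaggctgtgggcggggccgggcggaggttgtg
GEMIN8: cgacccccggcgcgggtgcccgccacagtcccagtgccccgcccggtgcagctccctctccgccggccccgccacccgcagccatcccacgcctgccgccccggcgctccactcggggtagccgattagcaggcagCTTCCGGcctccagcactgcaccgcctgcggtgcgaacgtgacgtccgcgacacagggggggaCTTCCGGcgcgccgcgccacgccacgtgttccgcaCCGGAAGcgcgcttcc
GEMIN5: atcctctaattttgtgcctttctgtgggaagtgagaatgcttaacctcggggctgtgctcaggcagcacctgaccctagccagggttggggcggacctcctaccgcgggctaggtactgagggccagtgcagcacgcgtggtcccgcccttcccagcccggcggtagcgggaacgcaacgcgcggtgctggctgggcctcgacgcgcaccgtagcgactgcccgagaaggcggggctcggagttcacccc
They lie at chr17:752265-752514 on the minus strand, chrX:14029893-14030142 on the minus strand and chr5:154938212-154938461 on the minus strand. The stretch before GEMIN4 precedes the start RefSeq gives, which lies inside the span given for the gene above, since GENCODE 29 also holds transcripts that start further upstream. CCGGAAG stands 2 times before GEMIN4 and 3 times before GEMIN8, which moved in opposite directions, and GEMIN5 does not hold it.

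Over the 300 bases that reach from 250 before to 50 after the start, on both strands, 21 of the 52 members (40.4%) held CCGGAAG in at least 1 annotated promoter. Among all protein-coding genes in the deposited rows, 16.7% did (2423 of 14487), and among those of at least 32 CPM in RNA-seq 26.1% (1367 of 5245). Of the members that fell in RNA-seq and have an entry, 11 of 29 held it, and of the other tested members 10 of 21. The letters AAGATGG of the YY1 site stood in 8 members (15.4%, against 8.06% of coding genes and 11.6% of those of at least 32 CPM), GCATGCG of the NRF1 site in 4 (7.69%, against 6.23% and 8.47%), CCAAT in 24 (46.2%, against 42.4% and 43.6%) and TATAAA in 1, SNRPC (1.92%, against 12.1% and 7.30%). Of all 35116 promoters of that length in the table, whatever their gene, 10.3% held CCGGAAG, 5.84% AAGATGG, 3.91% GCATGCG, 34.6% CCAAT and 11.5% TATAAA. In SF3B6 the AAGATGG match overlaps a CCGGAAG match, and GCATGCG can overlap its own reverse complement. A match is a run of letters and shows no binding.

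**Figure D4:**
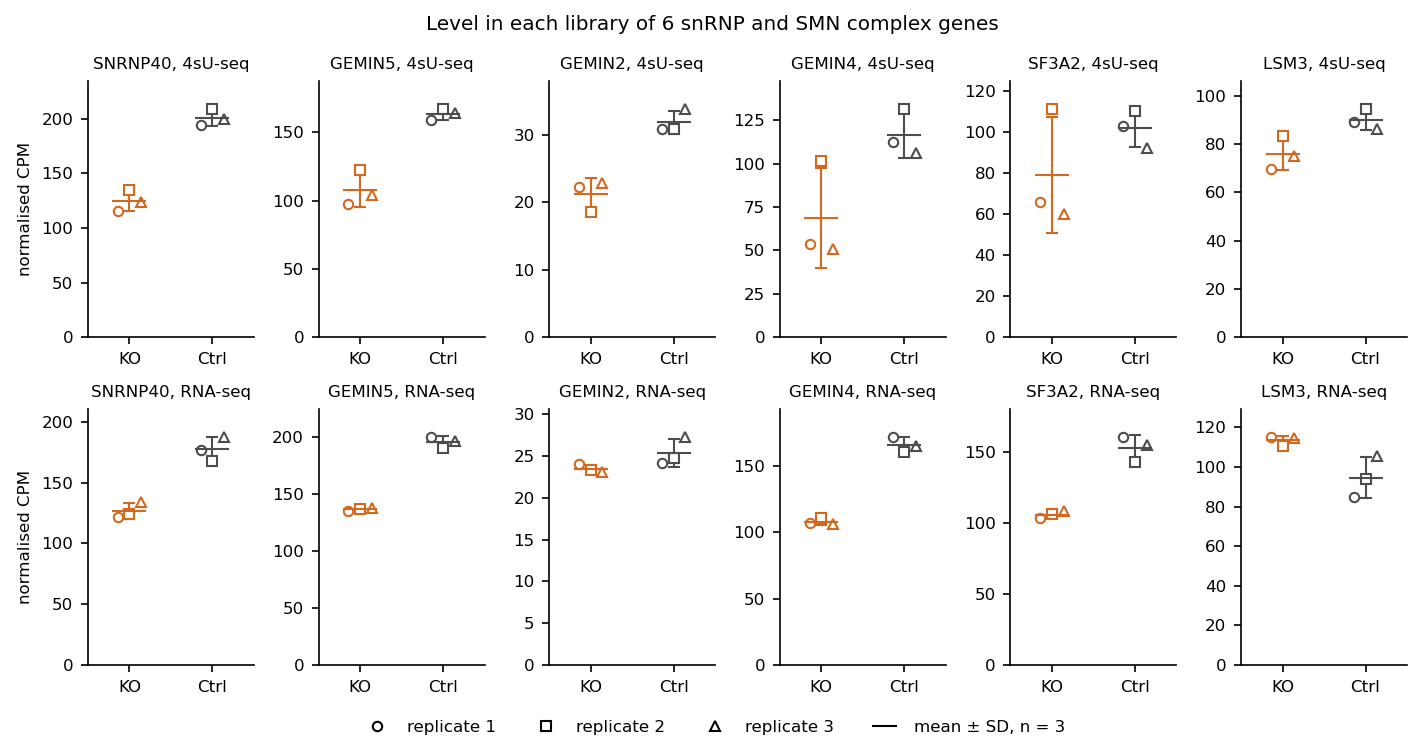
Normalised CPM of 6 members in each library, KO on the left and Ctrl on the right, for 4sU-seq (top) and RNA-seq (bottom), with a bar at the mean and whiskers of 1 SD (n = 3). SNRNP40 and GEMIN5 are lower in all KO libraries of both assays, KO replicate 2 (square) stands near Ctrl for GEMIN4 and SF3A2 in 4sU-seq, and the LSM3 change was called in RNA-seq, where KO is higher, but not in 4sU-seq.

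Of the U4/U6.U5 tri-snRNP, the particle that joins U1 and U2 on the intron, 6 of 7 tested genes fell in RNA-seq and 0 rose, where 54.0% of coding genes of at least 32 CPM and 26.8% of all genes fell. SNRNP40, a WD40 protein of U5 at chr1:31259568-31296782 on the minus strand, was the member with the smallest p in nascent RNA. Its 4sU-seq levels were 116, 135 and 124 CPM in KO and 194, 209 and 199 CPM in Ctrl (-0.69 ± 0.10, adjusted p = 0.0066; -0.81 ± 0.09 without KO replicate 2). In RNA-seq it had 122, 124 and 134 CPM in KO and 177, 168 and 188 CPM in Ctrl (-0.49 ± 0.06, adjusted p = 2.34e-05). The groups were well apart in both assays, and only ERCC scaling ended the call in 4sU-seq (adjusted p = 0.635).

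PRPF6, the bridge between U5 and U4/U6, had 114, 116 and 119 CPM in KO and 177, 153 and 172 CPM in Ctrl in RNA-seq (-0.53 ± 0.06, adjusted p = 1.65e-05), and PRPF4, a WD40 protein of U4/U6, had 114, 116 and 118 CPM in KO and 156, 147 and 159 CPM in Ctrl (-0.41 ± 0.06, adjusted p = 3.97e-05). Neither pair of groups overlapped. Their 4sU-seq changes, -0.31 ± 0.20, adjusted p = 0.336 and -0.53 ± 0.17, adjusted p = 0.0797, missed the threshold, and without KO replicate 2 they were -0.64 ± 0.10 and -0.80 ± 0.10, with adjusted p = 0.00205 and 0.000835. SNRNP200, the helicase that unwinds U4 from U6, had 486, 485 and 504 CPM in KO and 635, 587 and 598 CPM in Ctrl (-0.30 ± 0.06, adjusted p = 0.000526). PRPF8, the protein at the catalytic centre, fell too (-0.41 ± 0.06, adjusted p = 0.00016). In 4sU-seq KO replicate 2 held more PRPF8 and SNRNP200 RNA than any other library, with 359.8 and 514 CPM, against 188 and 312 CPM in KO replicate 1. PRPF3 fell (-0.23 ± 0.07, adjusted p = 0.015), and SNRNP27 did not pass the test (-0.11 ± 0.08, adjusted p = 0.263). PRPF31, which holds U4/U6 to U5, was tested in nascent RNA alone, on a row that may hold only some of its reads (-0.61 ± 0.25, adjusted p = 0.139; -0.99 ± 0.15 without KO replicate 2).

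The U2 snRNP, which recognises the branch point, had 8 of 11 genes lower in steady-state RNA and 1 higher, where 54.0% of coding genes of at least 32 CPM and 26.8% of all genes fell in RNA-seq. The whole SF3A trimer fell. SF3A2 had 104, 106 and 108 CPM in the KO libraries, against 161, 143 and 155 CPM in the Ctrl libraries of RNA-seq (-0.53 ± 0.06, adjusted p = 8.86e-06), SF3A1 had 205, 202 and 211 CPM in KO and 316, 277 and 291 CPM in Ctrl (-0.52 ± 0.06, adjusted p = 9.35e-06), and SF3A3 had 158, 151 and 172 CPM in KO and 221, 207 and 225 CPM in Ctrl (-0.44 ± 0.06, adjusted p = 6.08e-05). No KO library reached the lowest Ctrl library in any of them.

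Within the SF3B complex, which clamps the branch point, SF3B2 had 358, 352 and 374 CPM in KO and 524, 464 and 513 CPM in Ctrl (-0.47 ± 0.06, adjusted p = 2.66e-05), SF3B3 had 309, 316 and 313 CPM in KO and 414, 402 and 399 CPM in Ctrl (-0.37 ± 0.05, adjusted p = 4.21e-05), and SF3B4 had 137, 142 and 144 CPM in KO and 201, 172 and 189 CPM in Ctrl (-0.41 ± 0.06, adjusted p = 0.000128). All of these were lower in every KO library. SF3B1, the scaffold that is recurrently mutated in blood cancers, changed less (-0.21 ± 0.07, adjusted p = 0.0211), and not past the threshold under ERCC scaling (adjusted p = 0.211). The small subunits differed: SF3B5 had 60.9, 66.5 and 66.7 CPM in KO and 64.7, 62.1 and 69.1 CPM in Ctrl (-0.01 ± 0.06, adjusted p = 0.883), with overlapping groups, and SF3B6, which touches the branch point adenosine, rose, with 123, 122 and 123 CPM in KO and 95.8, 99.7 and 118 CPM in Ctrl (0.23 ± 0.07, adjusted p = 0.0178). In 4sU-seq no U2 gene was called, the changes ran from -0.40 to 0.17, and without KO replicate 2 those of SF3A2, SF3A1, SF3B2 and SF3B4 were -0.76 ± 0.11, -0.66 ± 0.11, -0.65 ± 0.12 and -0.84 ± 0.12. The U2-specific proteins SNRPA1 and SNRPB2 changed by -0.30 ± 0.05, adjusted p = 0.00036, and by -0.07 ± 0.07, adjusted p = 0.411, in RNA-seq.

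Of the U1 snRNP, which marks the 5′ splice site, the 3 specific proteins fell, and the associated proteins PRPF39 and PRPF40B did not. SNRNP70 had 176, 173 and 188 CPM in KO and 245, 228 and 248 CPM in Ctrl in RNA-seq (-0.43 ± 0.06, adjusted p = 4.6e-05) and SNRPA had 88.4, 85.8 and 93.6 CPM in KO and 129, 112 and 124 CPM in Ctrl (-0.45 ± 0.06, adjusted p = 7.22e-05). SNRPC, the highest of them per kilobase, had 110.0, 119 and 126 CPM in KO and 135, 125 and 143 CPM in Ctrl (-0.18 ± 0.07, adjusted p = 0.0392). The SNRPC groups overlapped, and its call was lost under 12 of 17 alternatives. PRPF39 rose, with 79.4, 75.7 and 80.5 CPM in KO and 62.1, 67.7 and 62.8 CPM in Ctrl (0.29 ± 0.06, adjusted p = 0.00097), and PRPF40B changed by 0.09 ± 0.09, adjusted p = 0.404. In 4sU-seq no U1 gene was called, and the lowest change was -0.44 for SNRPA. Without KO replicate 2 SNRPA was at -0.74 ± 0.09, adjusted p = 0.000926, and SNRNP70 at -0.61 ± 0.09, adjusted p = 0.00193.

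Of the Sm ring genes, SNRPB had 207, 209 and 209 CPM in KO and 234, 255 and 274 CPM in Ctrl in RNA-seq (-0.29 ± 0.06, adjusted p = 0.00159). SNRPD1, at chr18:21612267-21633524 on the plus strand, had 158, 158 and 172 CPM in KO and 176, 198 and 209.7 CPM in Ctrl (-0.25 ± 0.07, adjusted p = 0.00783), and in 4sU-seq 143, 153 and 155 CPM in KO and 195, 198 and 189.7 CPM in Ctrl (-0.38 ± 0.09, adjusted p = 0.0308; -0.46 ± 0.08 without KO replicate 2). SNRPD1 was thus lower in every KO library of both assays. SNRPD3 fell in RNA-seq (-0.20 ± 0.07, adjusted p = 0.0298) with overlapping groups. SNRPF, SNRPG, SNRPD2 and SNRPE changed by -0.13 ± 0.08, 0.02 ± 0.07, 0.09 ± 0.07 and 0.25 ± 0.12, none of them called. SNRPE and SNRPG are uncertain, since processed pseudogenes named after them carried counts of their own. In 4sU-seq all 8 Sm genes, SNRPN included, had values below 0, between -0.38 and -0.04. So did 52 of the 62 tested members and 4249 of the 6850 coding genes of at least 32 CPM. SNRPN had only 10 to 21 counts per library, so its sign is uncertain (-0.05 ± 0.28). Under ERCC scaling SNRPD1 was at -0.13 (adjusted p = 0.923). Without KO replicate 2 SNRPB, SNRPD2, SNRPD3, SNRPE and SNRPG were called lower in 4sU-seq as well. Their changes were -0.63, -0.39, -0.54, -0.37 and -0.39, with adjusted p between 0.00158 and 0.0221. Without that library 46.1% of coding genes of at least 32 CPM and 28.4% of all genes fell. SNRPF and SNRPN were not called.

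The LSm rings, which bind the end of U6 in the nucleus (LSM2 to LSM8) and the 3′ end of deadenylated messenger RNA in the cytoplasm, promoting its decapping (LSM1 to LSM7), split in RNA-seq. LSM2 (-0.47 ± 0.08, adjusted p = 0.000288) and LSM6 (-0.35 ± 0.05, adjusted p = 0.000129) fell. LSM5, LSM3 and LSM1 rose, and they, like GEMIN8, PRPF39 and SF3B6, are given by library because of these values. In RNA-seq 21.5% of all genes rose, and 11.7% of coding genes of at least 32 CPM. The number of members called higher was 2 without KO replicate 3, 1 without both replicates 2 and 11 without Ctrl replicate 3. LSM5 had 76.8, 77.6 and 78.5 CPM in KO and 45.3, 65.5 and 72.3 CPM in Ctrl (0.35 ± 0.12, adjusted p = 0.0297), and Ctrl replicate 1 lay well under the other Ctrl libraries. LSM3, which overlaps XPC on the opposite strand, had 115, 111 and 114 CPM in KO and 84.7, 93.9 and 105 CPM in Ctrl (0.26 ± 0.07, adjusted p = 0.00859). LSM1, the subunit particular to the cytoplasmic ring, had 49.2, 48.0 and 47.7 CPM in KO and 40.7, 38.5 and 46.4 CPM in Ctrl (0.21 ± 0.07, adjusted p = 0.0214). Their KO libraries all lay above their Ctrl libraries, for LSM1 with a narrow gap. LSM8, the subunit particular to the nuclear ring, changed by 0.04 ± 0.06, adjusted p = 0.655, LSM7 by 0.00 ± 0.05, adjusted p = 0.984, and LSM4, the highest per kilobase, had 208, 214 and 215 CPM in KO and 182, 192 and 209 CPM in Ctrl (0.13 ± 0.06, adjusted p = 0.0974).

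In nascent RNA none of LSM3, LSM1 and LSM5 was called. LSM3 had 69.6, 83.3 and 74.9 CPM in KO and 89.0, 94.5 and 86.4 CPM in Ctrl in 4sU-seq (-0.24 ± 0.11, adjusted p = 0.184; -0.38 ± 0.09, adjusted p = 0.0109 without KO replicate 2) and LSM1 had 30.3, 32.7 and 31.4 CPM in KO and 38.6, 37.9 and 36.6 CPM in Ctrl (-0.26 ± 0.10, adjusted p = 0.132; -0.36 ± 0.09, adjusted p = 0.0111 without KO replicate 2). LSM5 had 25.0, 26.5 and 26.8 CPM in KO and 26.8, 27.5 and 29.3 CPM in Ctrl (-0.10 ± 0.11, adjusted p = 0.584), with groups that nearly met. Without KO replicate 2 its change was -0.18 ± 0.09, adjusted p = 0.152. Under ERCC scaling the 4sU-seq changes of LSM3, LSM1 and LSM5 were -0.02, -0.03 and 0.14, that of LSM5 above 0. Of the LSm-domain proteins outside these rings, LSM12 had 103, 121 and 108 CPM in KO and 145, 149 and 140.0 CPM in Ctrl in 4sU-seq (-0.39 ± 0.10, adjusted p = 0.0454; -0.52 ± 0.08 without KO replicate 2) and 99.0, 102 and 104 CPM in KO and 120.4, 113 and 126 CPM in Ctrl in RNA-seq (-0.24 ± 0.06, adjusted p = 0.00391). LSM12 is uncertain, since its pseudogene LSM12P1 carried 69.2% as many RNA-seq counts. LSM14A (-0.29 ± 0.06, adjusted p = 0.00111) and LSM14B (-0.30 ± 0.06, adjusted p = 0.000779), of cytoplasmic RNA granules, fell in RNA-seq. LSM10 and LSM11, of the histone-processing U7 snRNP, were not called: LSM10 had 43.4, 44.3 and 41.4 CPM in KO and 46.2, 43.3 and 47.2 CPM in Ctrl (-0.08 ± 0.06, adjusted p = 0.249), and LSM11 changed by 0.03 ± 0.06, adjusted p = 0.697.

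Among the U11/U12 proteins of the minor spliceosome, SNRNP48 had 48.3, 47.0 and 47.6 CPM in KO and 58.5, 70.8 and 69.8 CPM in Ctrl in RNA-seq (-0.48 ± 0.07, adjusted p = 9.36e-05) and SNRNP25 fell too (-0.27 ± 0.06, adjusted p = 0.00244), while SNRNP35 did not pass the test (-0.19 ± 0.11, adjusted p = 0.155). Nascent SNRNP48 RNA was 44.8, 26.8 and 52.8 CPM in KO and 36.2, 32.9 and 51.8 CPM in Ctrl (0.04 ± 0.29, adjusted p = 0.94; 0.21 ± 0.20 without KO replicate 2), with broadly overlapping groups. PRPF19, the ubiquitin ligase at the core of the PRPF19 complex, had 212, 213 and 217 CPM in KO and 317, 291 and 313 CPM in Ctrl (-0.52 ± 0.05, adjusted p = 4.59e-06), and 118, 198 and 112 CPM in KO and 185, 223 and 186 CPM in Ctrl in 4sU-seq (-0.47 ± 0.24, adjusted p = 0.218; -0.86 ± 0.11, adjusted p = 0.00106 without KO replicate 2). Every KO library was lower in RNA-seq, and KO replicate 2 alone reached the Ctrl levels in 4sU-seq. PRPF38A (-0.21 ± 0.06, adjusted p = 0.00695) and PRPF38B (-0.15 ± 0.05, adjusted p = 0.0324), of the pre-catalytic spliceosome, fell in RNA-seq, and PRPF4B (-0.06 ± 0.06) and PRPF18 (adjusted p = 0.985) were not called.

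Whether the knockout changed nascent and steady-state RNA by different amounts was tested by an interaction term. None of the 60 members tested in both assays passed (edgeR), where 2.14% of 15863 genes did, 8 had an unadjusted p below 0.05, and DESeq2 called 4. Of all genes 15.9% had an unadjusted p below 0.05, and DESeq2 called 6.68%. Those at an unadjusted p below 0.05 were LSM1 (-0.46 ± 0.12, adjusted p = 0.0802), LSM3 (-0.51 ± 0.14, adjusted p = 0.0896), GEMIN2 (-0.47 ± 0.14, adjusted p = 0.117), SNRPG, SNRPE and LSM5, with 4sU-seq below RNA-seq, and SMN1 and SMN2, with 4sU-seq above. Without 4sU-seq KO replicate 2 the test called 24 members, LSM1, LSM3 and GEMIN2 among them, and 32.1% of all genes. Across the members the changes of both assays had a Pearson r of 0.58 and a Spearman rho of 0.58 (n = 60 genes, which are not independent). Both values were below 0 for 41 genes and above 0 for 6, while 9 were below 0 in 4sU-seq alone and 4 in RNA-seq alone. GEMIN5, SNRNP40, SNRPD1, GEMIN6 and LSM12 were called lower in both. The shares of all genes with like signs or calls in both assays were not counted, so nothing particular to the members is read from these numbers.

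**Figure D5:**
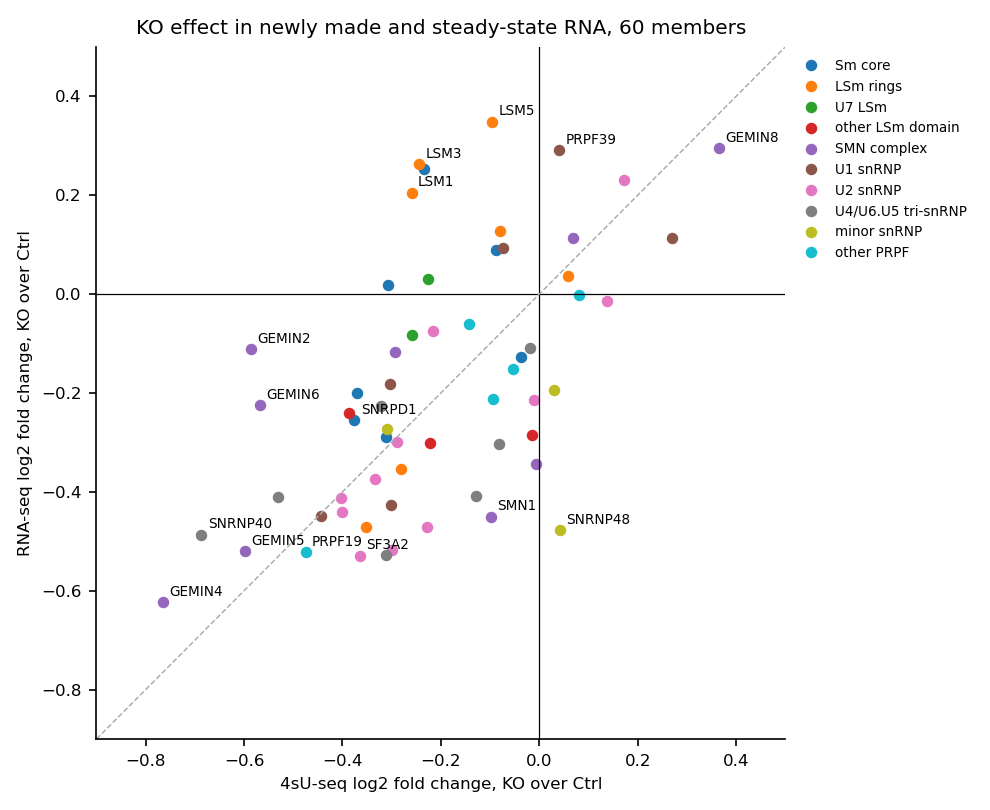
Log2 fold change of KO over Ctrl in RNA-seq against that in 4sU-seq for the 60 members tested in both, coloured by role, with equal changes on the dashed line. GEMIN4, GEMIN5 and SNRNP40 lie low in both, and LSM1, LSM3 and LSM5 above 0 in RNA-seq, with uncalled 4sU-seq values of -0.26, -0.24 and -0.10, of which that of LSM5 is 0.14 under ERCC scaling.

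Partner genes outside the naming rule, in 7 lists of 90 genes, are given beside the same background. In RNA-seq 57 of 89 tested fell and 7 rose (64.0% and 7.87%, median -0.27), where 54.0% of coding genes of at least 32 CPM and 26.8% of all genes fell. In 4sU-seq 14 of 86 fell and 2 rose (16.3% and 2.33%, median -0.22), where 11.0% of coding genes of at least 32 CPM and 6.98% of all genes fell. The counts were 48 and 5 without KO replicate 2, where 46.1% of coding genes of at least 32 CPM and 28.4% of all genes fell. ERCC scaling left 34 lower in RNA-seq and no list gene called in 4sU-seq. Single lists were not tested against these shares, and nothing particular to a list is read from its count. For snRNP assembly and transport 10 of 15 fell in RNA-seq, among them TGS1, which makes the trimethylguanosine cap (-0.42 ± 0.06, adjusted p = 4.04e-05), the Cajal body protein USPL1 (-0.45 ± 0.06, adjusted p = 4.82e-05) and the cap-binding protein NCBP1 (-0.37 ± 0.05, adjusted p = 5.43e-05). WDR77, the partner of the Sm methyltransferase PRMT5, fell in RNA-seq (-0.37 ± 0.05, adjusted p = 6.26e-05) and in 4sU-seq (-0.67 ± 0.17, adjusted p = 0.0371). The import receptor KPNB1 (-0.49 ± 0.10, adjusted p = 0.0213) and the arginine methyltransferase PRMT7 (-0.54 ± 0.14, adjusted p = 0.0448) were the others of the 3 called in 4sU-seq. For the maturation of small nuclear RNA 6 of 8 fell in RNA-seq and 2 in 4sU-seq. TOE1, which trims their 3′ ends, changed by -0.50 ± 0.06, adjusted p = 1.34e-05 in RNA-seq and -0.84 ± 0.22, adjusted p = 0.0434 in 4sU-seq, and METTL16, the U6 methyltransferase, by -0.28 ± 0.05, adjusted p = 0.000848 and -0.37 ± 0.08, adjusted p = 0.027. The 7SK capping enzyme MEPCE (-0.39 ± 0.06, adjusted p = 0.000143) and the U6 recycling factor SART3 (-0.27 ± 0.06, adjusted p = 0.00127) also fell in RNA-seq.

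Of the U1 partners 5 of 7 fell in RNA-seq, led by LUC7L, which had 28.9, 27.5 and 28.6 CPM in KO and 45.3, 44.2 and 44.9 CPM in Ctrl (-0.66 ± 0.05, adjusted p = 4.03e-07) and also fell in nascent RNA (-0.57 ± 0.11, adjusted p = 0.0153). In RNA-seq 54.0% of coding genes of at least 32 CPM and 26.8% of all genes fell. RBM25 (-0.64 ± 0.06, adjusted p = 2.14e-06), TIAL1 (-0.35 ± 0.05, adjusted p = 9.86e-05) and LUC7L2 (-0.30 ± 0.06, adjusted p = 0.00125) followed. Among the U2 partners 9 of 12 fell in RNA-seq, such as the branch point protein SF1 (-0.48 ± 0.05, adjusted p = 8.63e-06) and the polypyrimidine tract receptor U2AF2 (-0.42 ± 0.05, adjusted p = 2.17e-05). RBM17 and the helicase DDX42 fell in RNA-seq (-0.52 ± 0.06, adjusted p = 5.1e-06, and -0.46 ± 0.05, adjusted p = 1.36e-05) and in 4sU-seq (-0.47 ± 0.09, adjusted p = 0.0178, and -0.39 ± 0.08, adjusted p = 0.02). For tri-snRNP partners and chaperones 13 of 17 fell and 2 rose in RNA-seq, and 4 fell in 4sU-seq. TXNL4A, the small U5 protein also known as DIM1, had the lowest 4sU-seq fold change of the list genes. It had 70.0, 83.4 and 70.0 CPM in KO and 183, 186 and 178 CPM in Ctrl in 4sU-seq (-1.29 ± 0.11, adjusted p = 0.00131) and 77.6, 78.7 and 78.5 CPM in KO and 139, 151 and 161 CPM in Ctrl in RNA-seq (-0.94 ± 0.06, adjusted p = 7.32e-08). PPIH, the U4/U6 cyclophilin (-0.76 ± 0.13, adjusted p = 0.011), RUVBL1, an ATPase of the R2TP chaperone (-0.50 ± 0.12, adjusted p = 0.035), and AAR2, a U5 assembly factor (-0.53 ± 0.14, adjusted p = 0.0441), fell in 4sU-seq, and SART1 (-0.67 ± 0.06, adjusted p = 1.32e-06), TTC27 (-0.52 ± 0.05, adjusted p = 3.32e-06) and AAR2 (-0.47 ± 0.06, adjusted p = 1.73e-05) in RNA-seq.

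In 4sU-seq 11.0% of coding genes of at least 32 CPM fell and 3.82% rose, against 6.98% and 12.6% of all genes. The RNA-seq counts that follow stand beside the 54.0% of those coding genes that fell and the 11.7% that rose. Of all genes 26.8% fell and 21.5% rose in RNA-seq. The minor spliceosome partners had a median log2 CPM of 4.52 in RNA-seq, under the bound of 32 CPM (a log2 of 5). The coding genes are thus of unlike level for them. For the minor spliceosome partners 2 of 9 fell, ARMC7 (-0.30 ± 0.06, adjusted p = 0.000525) and the U11 protein PDCD7 (-0.30 ± 0.05, adjusted p = 0.000526), and 2 rose, the U11/U12 bridge RNPC3 (0.52 ± 0.07, adjusted p = 4.68e-05) and RBM48 (0.33 ± 0.06, adjusted p = 0.000486). RBM48 rose in 4sU-seq as well (0.44 ± 0.11, adjusted p = 0.0375), where CCDC84, a minor spliceosome protein, fell (-0.67 ± 0.10, adjusted p = 0.00654). Of the PRPF19 complex and factors of the catalytic steps 12 of 21 fell and 3 rose in RNA-seq. AQR, the intron-binding helicase, had 80.4, 77.7 and 83.6 CPM in the KO libraries, against 168, 169 and 175 CPM in the Ctrl libraries (-1.09 ± 0.06, adjusted p = 6.24e-09), the largest RNA-seq change of any list gene. Its 4sU-seq change was -0.23 ± 0.28, adjusted p = 0.605 (-0.05 ± 0.15 without KO replicate 2), and the difference between assays did not pass the test (adjusted p = 0.189). CWC25 fell in both assays (-0.72 ± 0.08, adjusted p = 6.51e-06 in RNA-seq and -0.56 ± 0.13, adjusted p = 0.0295 in 4sU-seq), CTNNBL1 (-0.53 ± 0.06, adjusted p = 7.59e-06) and the helicase DHX8 (-0.52 ± 0.06, adjusted p = 1.47e-05) fell in RNA-seq, and SLU7, which acts in the second step, rose in 4sU-seq (0.83 ± 0.15, adjusted p = 0.0134).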

How the data were processed

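The authors deposited 2 tables of raw gene counts, 1 for 4sU-seq and 1 for RNA-seq, each with 56104 gene rows and 92 ERCC rows. The submitters' processing notes name FastQC 0.11.2, HISAT2 2.1.0, SAMtools 1.3, featureCounts and the build hg38. Sources used here do not give the annotation, counting feature or strand setting, so overlapping and antisense genes may share reads. A repeated header line in each table was skipped. ERCC rows were left out of library sizes.

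Each assay was fitted alone in edgeR 4.0.16 (R 4.3.3): filterByExpr with a minimum count of 10, TMM scaling, then glmQLFit and glmQLFTest (two-sided). P-values were adjusted by Benjamini-Hochberg over every gene tested, with a threshold of 0.05, and standard errors were taken as the absolute log2 change over the root of F. The difference between assays was tested as an interaction over all 12 libraries with TMM set within each assay. The fits were first tested on simulated data. Gene coordinates, exon lengths and transcript G+C came from GENCODE 29, which may not be the authors' annotation and has coordinates for 58 of the 64 members (not PRPF8, PRPF31, LSM2, LSM14A, SMN1 and SMN2). At these depths 3 counts stand for 0.0294 to 0.0378 CPM in 4sU-seq and 0.0706 to 0.0969 CPM in RNA-seq, counting error only.

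RNA-seq KO replicates 1 and 2 differed by more than sampling noise but less than other pairs, and were kept apart. The chi-square statistic per gene was 1.71 between them, against 10.5 to 19.0 for the other RNA-seq pairs within a group. Whether they come from separate cultures is not given in the labels used here. Members, role groups and lists were chosen with earlier results of these data known. Values per library are given for members called in either assay, at most 15 per assay by smallest p, and for the member of each role group with the highest RNA-seq Ctrl level per kb, and for up to 4 called genes per list and assay the test. Other genes named with values were chosen after these were seen. The values of 1 member are not reported here, and it is kept in the counts. Alternatives were DESeq2 1.42.0 (size factors and the Wald test), a replicate block, scaling by ERCC rows or by library size, a filter at a mean of 50 counts or none, leaving out each library or both replicates 2, the removal of trends with gene span, and 1 library for RNA-seq KO replicates 1 and 2. The removal of trends with G+C was added after the data were seen. Figures were drawn with Python 3.11.15 and matplotlib 3.10.9.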

Additional observations from a re-analysis of the deposited data

Results flagged for a closer look

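The interaction was tested for 60 members, 86 of the 90 list genes and PPM1G, and 2.14% of all 15863 genes tested were called. HTATSF1, a U2-associated splicing factor of the U2 partner list, was the 1 gene called among those members, list genes and PPM1G in the main fit. Its 4sU-seq levels were 39.3, 39.5 and 41.7 CPM in KO and 33.1, 30.5 and 33.9 CPM in Ctrl (0.31 ± 0.11, adjusted p = 0.0962), and its RNA-seq levels 86.4, 80.2 and 88.8 CPM in KO and 101, 95.7 and 104 CPM in Ctrl (-0.24 ± 0.06, adjusted p = 0.00554). The effect in 4sU-seq minus that in RNA-seq was 0.54 ± 0.11 on the log2 scale (edgeR, adjusted p = 0.0363). All 3 KO libraries lay above all Ctrl libraries in 4sU-seq and below them in RNA-seq. Groups of 3 libraries are too small for a rule on outlying libraries.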

How the results depend on the processing

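Members called lower in 4sU-seq, 6 with all libraries, numbered 15 by DESeq2's Wald test, 0 under ERCC scaling, 12 with the G+C trend removed, 3 under library size alone and 38 without both replicates 2, and 1 to 39 with 1 library left out. The share of all genes called lower was 11.4%, 0.207%, 13.3%, 4.04% and 24.8% in these settings, and 1.23% to 28.4% with 1 library left out. Members called higher there, 0, numbered 1 with the G+C trend removed, 2 without both replicates 2 and 0 to 1 with 1 library left out. The share of all genes called higher was 17.9% and 25.5%, and 4.85% to 25.4% with 1 library left out. In RNA-seq the 36 lower members became 20 under ERCC scaling, 19 under library size alone, 32 with KO replicates 1 and 2 as 1 library and 30 to 36 with 1 library left out. All genes were lower at 13.4%, 13.8%, 22.8% and 22.2% to 24.8%. The 6 higher members became 18 under library size alone, 3 with KO replicates 1 and 2 as 1 library, 1 without both replicates 2 and 2 to 11 with 1 library left out. All genes were higher at 36.4%, 18.0%, 17.4% and 17.2% to 23.5%. Members with a different effect between assays, 0, numbered 4 by the Wald test, 5 with the G+C trend removed, 3 under library size alone, 2 at a mean of at least 50 counts, 1 with the gene span trend removed, 4 without both replicates 2 and 0 to 24 with 1 library left out. Those settings called 1060, 1507, 386, 408, 725 and 2082 genes in all, of 12425 to 15875 tested, and the main fit 340 of 15863. With 1 library left out 90 to 5095 genes were called. List genes called lower in 4sU-seq, 14, numbered 0 under ERCC scaling, 24 with the G+C trend removed, 5 under library size alone, 48 without both replicates 2 and 1 to 48 with 1 library left out. Those called higher, 2, numbered 1 with DESeq2's size factors, 0 under ERCC scaling, 4 under library size alone, 1 without a filter, 1 with the span trend removed, 5 without both replicates 2 and 0 to 5 with 1 library left out. The first 6 of these settings called 11.65%, 3.16%, 14.6%, 7.45%, 15.4% and 25.5% of all genes higher. In RNA-seq the 57 lower list genes became 34 under ERCC scaling, 36 under library size alone and 50 to 56 with 1 library left out, and the 7 higher ones 20 under library size alone, 12 at a mean of at least 50 counts and 5 to 10 with 1 library left out. At a mean of at least 50 counts 27.2% of all genes were higher. For other settings the shares of all genes given for the members apply to the list genes too. Some uncalled or weakly called values changed sign. The RNA-seq change was 0.0754 for GEMIN2 and 0.003 for SNRPC under library size alone, 0.0016 for LSM10 under ERCC scaling, 0.10 for LSM10 under library size alone, and 0.0736, 0.17, 0.0557 and 0.0545 for SF3B5 under ERCC scaling, library size alone, the mean of 50 counts and without Ctrl replicate 3. The 4sU-seq change of SF3B5 was -0.35 without KO replicate 2 and -0.18 without both replicates 2, and that of STRAP -0.0502 without KO replicate 2. With 1 library left out the change ran over -0.35 to 0.33 for SF3B5 and -0.0502 to 0.0992 for STRAP in 4sU-seq, and over -0.0430 to 0.0545 for SF3B5 in RNA-seq. The cause was not tested.

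Replicate numbers come from the sample titles. The deviations of same-numbered KO and Ctrl libraries from their group means correlated at -0.16, 0.88 and 0.85 in 4sU-seq and at -0.06, 0.21 and 0.31 in RNA-seq, so the numbers were not taken to pair the samples, and not every KO library correlated best with its own number. With the replicate block 14 members were called lower and 0 higher in 4sU-seq, 36 and 8 in RNA-seq, 1 between assays, and of the list genes 25 lower and 2 higher in 4sU-seq, and 59 and 7 in RNA-seq.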

Other observations

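Processed pseudogenes named after members had counts of their own in the deposited tables. LSM12P1 averaged 2710 counts per RNA-seq library, 69.2% of the mean count of LSM12, and is listed at 0 in all 4sU-seq libraries. SNRPEP4 averaged 290.5 counts in 4sU-seq and 453 in RNA-seq, where SNRPE averaged 3540, and SNRPGP2 averaged 223 and 392, where SNRPG averaged 4354. LSM7 and GEMIN7 are not alone in being listed at 0 in one table: 510 protein-coding genes at 0 in all 4sU-seq libraries had a mean over 100 counts in RNA-seq, and 59 were the reverse.

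The members' changes were weakly related to features of their genes. The RNA-seq log2 fold change had a Spearman rho of -0.31 with transcript G+C and -0.25 with exon length over 57 members, against -0.04 and -0.05 over 13098 protein-coding genes. In 4sU-seq the rho with G+C was -0.32 over 56 members, against -0.09 over 14141 genes. These are descriptions across genes of the same libraries.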
